A study of Arabidopsis thaliana with 6 samples.

Results

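The mitochondrial genome of Arabidopsis was followed through an experiment in which RNA bound by ECT2 was crosslinked and precipitated from seedlings. Its loci were taken as all loci whose identifier begins with ATMG, in the input tables or in the site lists of the precipitated libraries, together with the sites placed on ChrM. There were 146 such loci among 33586 in the whole series. Of these, 143 were in the input tables and 53 held a site in at least one of the 4 precipitated libraries. The 3 ribosomal RNA loci held sites but were not among the rows of the input tables, so their input values were not analysed here. The 53 loci with a site were 3 ribosomal RNA loci, 18 transfer RNA loci, 22 protein-coding loci with a gene name, 9 other open reading frames (ORFs) and ATMG00090, which the files leave without a symbol.

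All plants were 14-day-old Col-0 seedlings fixed with formaldehyde. The FA-CLIP group (formaldehyde crosslinking and immunoprecipitation) held RNA taken with anti-FLAG M2 beads from plants labelled transgenic ECT2:ETC2-Flag/ect2, in which ect2 is a T-DNA insertion line. The mock group held RNA taken with the same beads from wild-type plants, which carry neither the insertion nor the tagged protein. The difference between FA-CLIP and mock therefore includes the tag, the transgene and the ect2 background, which cannot be told apart. The input group held RNA of the transgenic plants with no antibody. Each group had 2 libraries. The labels do not say whether the libraries of a group came from separate plantings, so p-values measure only the spread between these libraries.

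ECT2 is a protein with a YTH domain, a fold that binds N6-methyladenosine in RNA. Plant mitochondria transcribe their own genome, process the transcripts inside the organelle and translate them on their own ribosomes. The genome encodes the ribosomal RNAs, part of the transfer RNAs, a few ribosomal proteins and cytochrome c maturation factors, and core subunits of respiratory complexes I, III and IV and of the ATP synthase. Some mitochondrial transfer RNA genes descend from chloroplast DNA, and chromosome 2 of Arabidopsis carries a long copy of the mitochondrial genome near its centromere. Reads from such genes can therefore match more than one place.

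The sequences of 4 transfer RNA genes show how closely these copies resemble each other. They were read from RefSeq TAIR10.1 by gene name, since the mitochondrial chromosome of that assembly is arranged differently from the ChrM of the site lists. Capitals mark the single base at which trnN and at which trnW differed from the chloroplast gene, and trnC and trnE had no chloroplast match over 90% of their length. On the mitochondrial chromosome of TAIR10.1, trnN lies at 43544 to 43615 on the plus strand, trnW at 298901 to 298974 on the plus strand, trnC at 42546 to 42616 on the plus strand and trnE at 321367 to 321438 on the minus strand.
trnN(GTT): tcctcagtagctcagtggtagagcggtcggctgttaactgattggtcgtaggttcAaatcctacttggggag
trnW(CCA): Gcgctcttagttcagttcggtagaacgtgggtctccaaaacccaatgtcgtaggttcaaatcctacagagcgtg
trnC(GCA): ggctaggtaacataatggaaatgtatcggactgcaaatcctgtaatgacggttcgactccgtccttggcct
trnE(TTC): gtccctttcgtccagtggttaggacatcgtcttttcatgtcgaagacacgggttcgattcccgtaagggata

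The site lists give, for each site, the number of conversion events, the name the file headers use for what is, in methods of this kind, a count of base changes in the reads. FA-CLIP replicates 1 and 2 listed 901178 and 830355 events in 41707 and 41471 sites, and mock replicates 1 and 2 listed 489805 and 653262 events in 3440 and 3848 sites. No site had fewer than 2 events, so a locus without a site is not shown to lack RNA. Each share is given with its 95% Wilson interval, which covers only the counting error. Nothing in the files identifies single molecules.

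Mitochondrial RNA took a smaller share of the events in FA-CLIP than in the mock, and ribosomal RNA carried nearly all of that gap. ChrM sites held 1555 and 1455 events in FA-CLIP and 5249 and 9086 in the mock. Their share of all events was 0.173% (0.164 to 0.181) and 0.175% (0.166 to 0.184) in the FA-CLIP libraries and 1.07% (1.04 to 1.10) and 1.39% (1.36 to 1.42) in the mock libraries. FA-CLIP averaged 0.174% ± 0.00189 and the mock 1.23% ± 0.226 (SD, n = 2 libraries each), and the mock mean was 7.08-fold higher. The groups did not overlap, and the exact permutation test gave p = 0.33 (two-sided), the smallest value that 2 libraries against 2 allow. The number of ChrM sites was similar, with 125 and 128 in FA-CLIP and 133 and 143 in the mock, and they covered 3426 and 3798 nt in FA-CLIP and 3843 and 4482 nt in the mock. The sites differed in depth, with a mean of 12.4 and 11.4 events per ChrM site in FA-CLIP and 39.5 and 63.5 in the mock. Events per site also differed over all sites of the libraries, at 21.6 and 20.0 in FA-CLIP and 142 and 170 in the mock, and whether this moves the ChrM values was not tested. These values are shares of the events listed in precipitates and do not measure RNA levels in the seedlings. Nor can fewer cells holding an RNA be told apart from less of it per cell in whole seedlings.

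By class, the ribosomal RNA loci had the lowest FA-CLIP share relative to the mock, while transfer RNA, named genes and other ORFs lay closer together. Mitochondrial ribosomal RNA took 0.134% and 0.129% of all events in FA-CLIP and 1.02% and 1.33% in the mock, and the ratio of the 2 means was 0.112. Transfer RNA took 0.0181% and 0.0208% in FA-CLIP and 0.0210% and 0.0259% in the mock, a ratio of 0.830. Named protein-coding loci took 0.0118% and 0.0154% in FA-CLIP and 0.0204% and 0.0228% in the mock, a ratio of 0.629. The groups did not overlap in any of these 3 classes, although counting intervals of the transfer RNA and of the named protein-coding shares did, and each exact permutation test gave p = 0.33. The other ORFs took 0.00721% and 0.009996% in FA-CLIP and 0.0118% and 0.0116% in the mock. Outside ribosomal RNA, ChrM sites took 0.0383% and 0.0465% in FA-CLIP and 0.0537% and 0.0609% in the mock, a ratio of 0.740. With ribosomal RNA, transfer RNA and other small RNA loci of all genomes left out of both the ChrM events and the total, ChrM sites took 0.0348% and 0.0372% in FA-CLIP and 0.278% and 0.338% in the mock. The groups stayed apart on that total too, but its make-up differs between them. Nuclear protein-coding loci took 54.6% and 65.9% of all events in FA-CLIP and 6.23% and 5.56% in the mock. Ribosomal RNA made up 77.8% and 73.5% of the ChrM events in FA-CLIP and 95% and 95.6% in the mock.

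**Figure D1:**
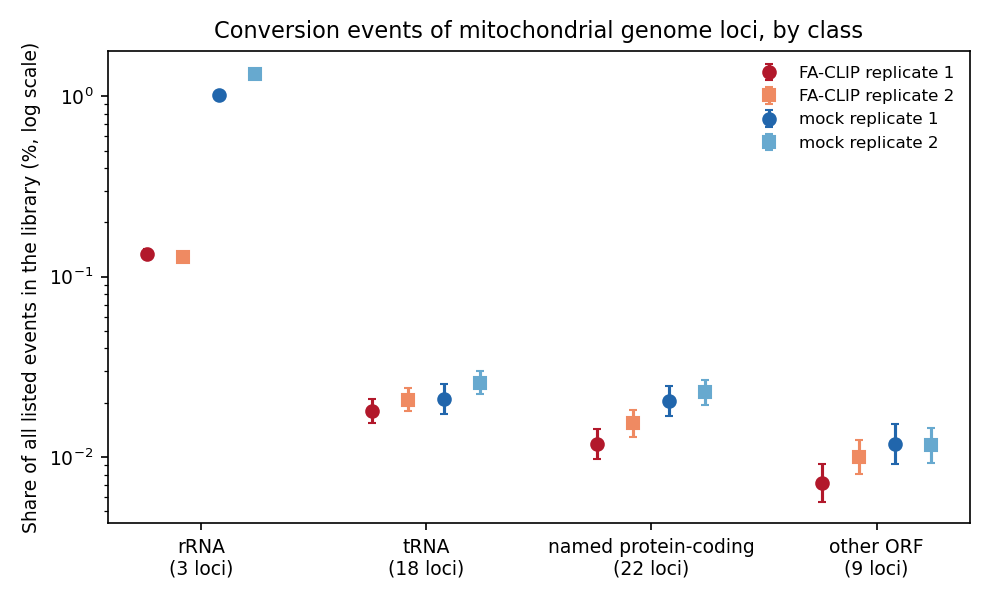
Share of all listed events of each library (percent, log scale) taken by the 4 classes of mitochondrial loci, with 95% Wilson intervals. The ribosomal RNA points stand near 0.13% in both FA-CLIP libraries and above 1% in both mock libraries, while the other classes lie much closer together.

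Shares add up to the whole library, and sites outside organelle and structural RNA make up most of FA-CLIP, so the mitochondrial classes were also set against the same class of the other genomes. These ratios were chosen once the values were known. Ribosomal RNA had an FA-CLIP over mock ratio of 0.112 for mitochondria, 0.285 for chloroplasts and 0.462 for the nucleus. Per 1000 chloroplast ribosomal RNA events there were 34.7 and 35.9 mitochondrial ones in FA-CLIP and 80.1 and 99.1 in the mock. Per 1000 nuclear ribosomal RNA events there were 8.70 and 6.72 in FA-CLIP and 29.0 and 33.3 in the mock. The groups did not overlap in either ratio, with exact permutation p = 0.33 for each. Transfer RNA had an FA-CLIP over mock ratio of 0.830 for mitochondria, 0.793 for chloroplasts and 0.494 for the nucleus. The transfer RNA ratios to the other genomes did not separate the groups. Per 1000 chloroplast transfer RNA events there were 11.6 and 12.6 mitochondrial ones in FA-CLIP and 10.6 and 12.5 in the mock, and the groups overlapped (exact permutation p = 0.667). Per 1000 nuclear transfer RNA events there were 2.12 and 5.37 in FA-CLIP and 1.51 and 2.30 in the mock, again with overlap (exact permutation p = 0.667).

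For single loci, events were compared with edgeR's quasi-likelihood test on the events of 5136 loci that passed its filter on low counts, with the total events of each library as its size. Of the 146 mitochondrial loci, 17 passed that filter. At an adjusted p of 0.05 (Benjamini-Hochberg over all 5136 loci), 154 loci (3.00%) were lower in FA-CLIP and 4545 (88.5%) were higher. Of the 17 mitochondrial loci, 4 were lower and 0 were higher. All 17 had events in both mock libraries, while 3834 of the 5136 loci had none in either and could not be called lower. The shares over all loci, here and below, are therefore not a like measure for the 17. A locus passes the filter where either group is high, so the 17 do not stand for all 146. At an unadjusted p under 0.05 the mitochondrial counts were 6 lower and 0 higher, against 3.17% lower and 88.6% higher over all loci. DESeq2 called 16 lower and 0 higher, against 10.3% lower and 67.8% higher over all loci. A fit with TMM factors called 10 lower and 0 higher, against 5.51% lower and 87.7% higher over all loci. A fold change here is a change in the share of all events of a library. The median log2 fold change (FA-CLIP over mock) was -0.82 over the 17 mitochondrial loci and 7.50 over all loci tested. The second median rests on absence from the mock lists, since 3834 of the 5136 loci had no event in either mock library, a state in which the fitted fold change depends on the prior count. Over the 852 loci with events in both mock libraries, which include all 17 mitochondrial ones, the median was 0.06.

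**Figure D2:**
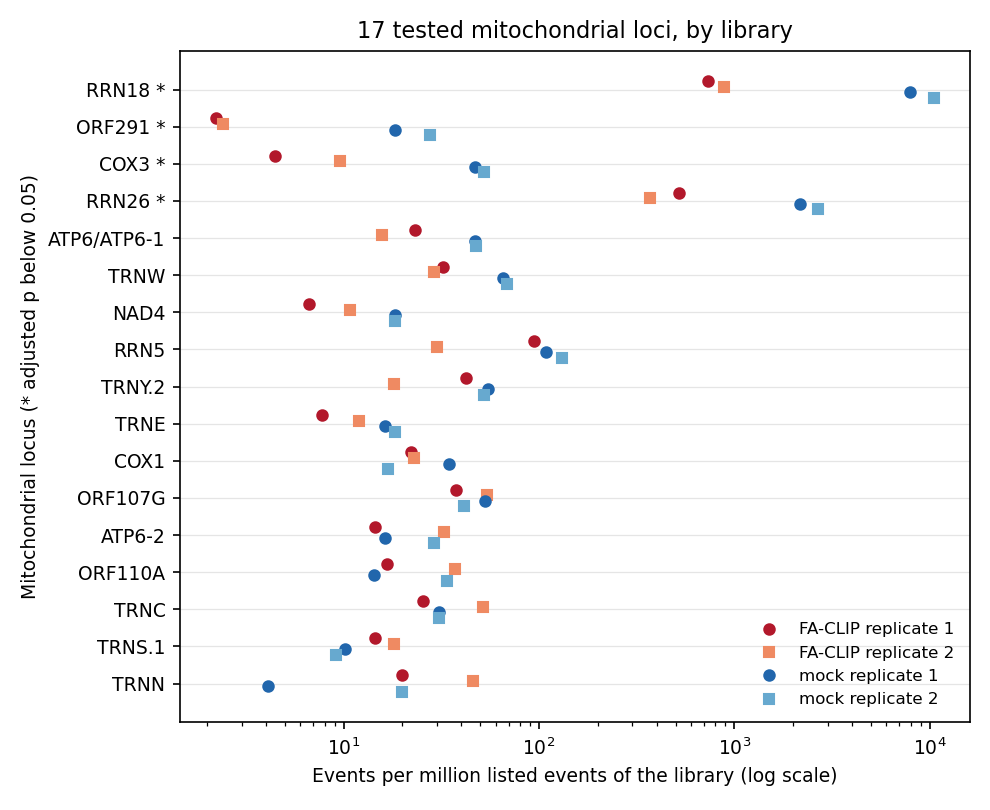
Events per 1000000 listed events of the library (CPM, log scale) at the 17 tested mitochondrial loci in the 2 FA-CLIP and the 2 mock libraries, ordered by fold change, with an asterisk at the 4 loci past an adjusted p of 0.05. RRN18 and RRN26 stand far above the other loci in all 4 libraries and lower in FA-CLIP than in the mock. TRNN and TRNS.1, at the bottom, have both FA-CLIP points above both mock points, while the groups overlap at TRNC, ORF110A and ATP6-2.

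RRN18, the 18S RNA of the small subunit of the mitochondrial ribosome (ATMG01390), held more events than any other mitochondrial locus in every precipitated library. It had 658 and 738 events in FA-CLIP and 3871 and 6859 in the mock, or 730 and 889 CPM in FA-CLIP and 7903 and 10500 CPM in the mock, where CPM are events per 1000000 listed events of the library. Both FA-CLIP values lay below both mock values. RRN18 fell by 3.51 on the log2 scale (SE 0.72, edgeR adjusted p = 1.3e-05), and its log2 fold change was -4.29 with TMM factors and -6.17 with DESeq2. RRN26, the 26S RNA of the large subunit (ATMG00020), had 467 and 306 events in FA-CLIP and 1062 and 1743 in the mock. These were 518 and 369 CPM in FA-CLIP and 2168 and 2668 CPM in the mock, again without overlap. RRN26 fell by 2.45 (SE 0.68, edgeR adjusted p = 0.00078), with -3.19 under TMM factors and -5.06 under DESeq2. RRN5, the 5S RNA of the large subunit (ATMG01380), had 85 and 25 events in FA-CLIP and 53 and 86 in the mock. Its log2 fold change of -0.94 (SE 0.60, edgeR adjusted p = 0.13) did not pass the threshold, and its FA-CLIP libraries, at 94.3 and 30.1 CPM, differed more from each other than the mock libraries, at 108 and 132 CPM. The ratio of RRN18 to RRN26 events was 1.41 and 2.41 in FA-CLIP and 3.65 and 3.94 in the mock. Per kb of RefSeq gene length, RRN18 had 377 and 459 CPM in FA-CLIP and 4084 and 5426 CPM in the mock. RRN26 had 164 and 116 CPM per kb in FA-CLIP and 684 and 842 in the mock.

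Within RRN18 the 2 FA-CLIP replicates differed in how the events were spread over the RNA. When overlapping sites of the 4 libraries were joined, the region of most FA-CLIP events was ChrM:362111-362231 on the minus strand (coordinates of the site lists). It held 171 and 526 events in FA-CLIP and 702 and 993 in the mock. These were 26.0% (22.8 to 29.5) and 71.3% (67.9 to 74.4) of the RRN18 events in FA-CLIP replicates 1 and 2, and 18.1% and 14.5% in the mock replicates. The 2 FA-CLIP shares lay farther apart than FA-CLIP replicate 1 lay from either mock library. Without that region, which was singled out from these values, RRN18 had 540 and 255 CPM in FA-CLIP and 6470 and 8980 in the mock. The region ChrM:362798-362825 had no listed site in either FA-CLIP library and 2.79% and 4.04% of the RRN18 events in the mock libraries. The region ChrM:362621-362693 held 5.32% and 0.407% of them in FA-CLIP and 10.6% and 9.94% in the mock. ChrM:361589-361634 held 6.08% and 3.79% in FA-CLIP and 11.9% and 15.9% in the mock. The region boundaries and their choice came from the listed events, so these values are descriptions.

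**Figure D3:**
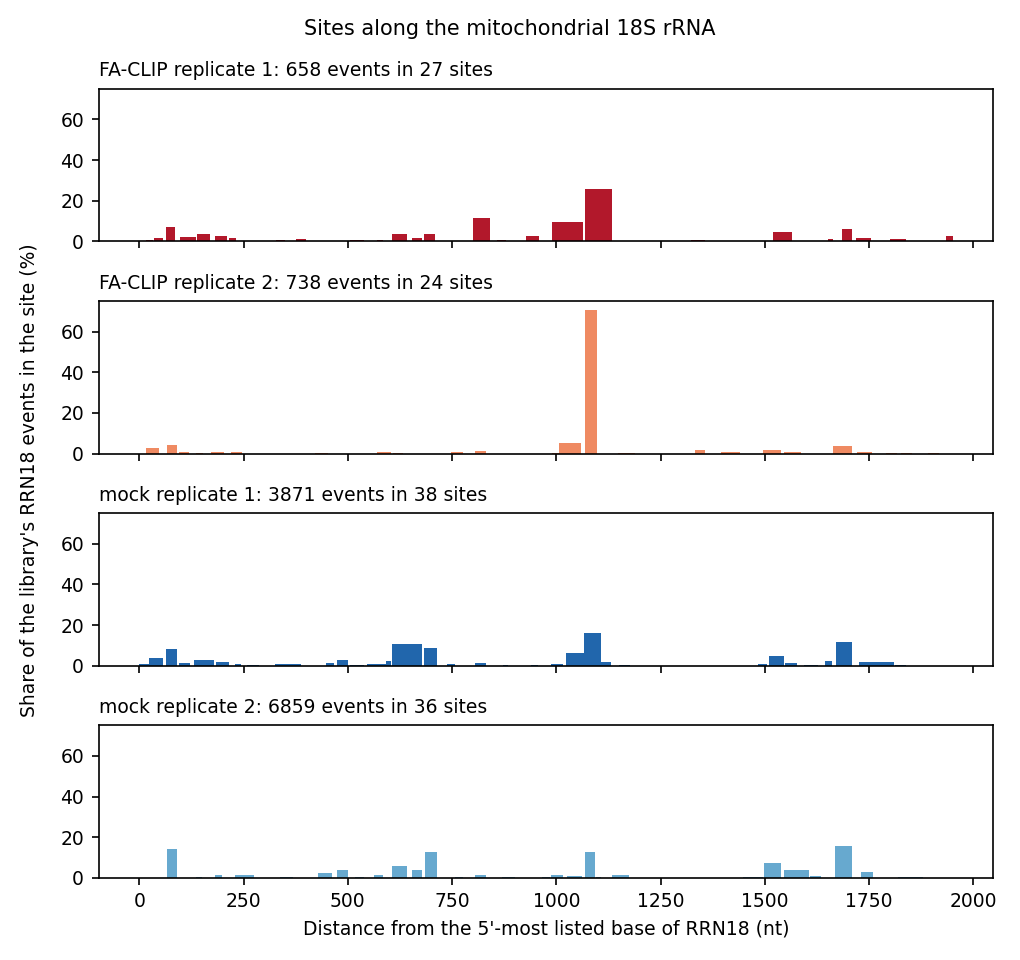
Share of each library's RRN18 events (percent) held by each site along the RNA, against the distance in nt from the 5'-most listed base, with FA-CLIP replicates above mock replicates. One site past the middle of the RNA holds 71.3% of the events in FA-CLIP replicate 2, while the mock events are spread over several sites.

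Transfer RNAs, which carry amino acids to the mitochondrial ribosome, had sites at 18 loci. Sites were present in both FA-CLIP libraries at 10 of them, in both mock libraries at 9 and in all 4 libraries at 7. Of the 6 tested, none passed the threshold in either direction, and their log2 fold changes ran from -1.13 to 1.36 with a median of -0.24. TRNN, the asparagine transfer RNA locus (ATMG00380), had 18 and 38 events in FA-CLIP and 2 and 13 in the mock, or 20.0 and 45.8 CPM in FA-CLIP and 4.08 and 19.9 CPM in the mock. The higher mock value lay just under the lower FA-CLIP value. Its log2 fold change was 1.36 (SE 0.68, edgeR adjusted p = 0.055). It passed only without mock replicate 2, at 2.95 (edgeR adjusted p = 0.0038), and the value was 0.53 with TMM factors and -1.35 with DESeq2. TRNW, for tryptophan (ATMG00930), had 29 and 24 events in FA-CLIP and 32 and 45 in the mock, with a log2 fold change of -1.13 (edgeR adjusted p = 0.064). Its levels, 32.2 and 28.9 CPM in FA-CLIP and 65.3 and 68.9 CPM in the mock, did not overlap. TRNC, for cysteine (ATMG00360), had 23 and 43 events in FA-CLIP and 15 and 20 in the mock, and its 25.5 and 51.8 CPM in FA-CLIP lay on both sides of the 30.6 and 30.6 CPM in the mock. TRNY.2, for tyrosine (ATMG00390), had 38 and 15 events in FA-CLIP and 27 and 34 in the mock. TRNE, for glutamate, had 7 and 10 in FA-CLIP and 8 and 12 in the mock, and TRNS.1, for serine, had 13 and 15 in FA-CLIP and 5 and 6 in the mock.

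Because the insertion on chromosome 2 holds identical copies of many mitochondrial genes, the events of the copies were read beside those on ChrM. A match of at least 1000 nt and 99% identity between the TAIR10.1 mitochondrial and chromosome 2 sequences placed the insertion at chromosome 2, 3239038 to 3509765 in TAIR10.1. Nuclear coordinates of the site lists fit that assembly, with 98.5% of 85475 nuclear sites inside their locus. The insertion held 44 and 47 sites with 379 and 471 events in FA-CLIP and 37 and 47 sites with 212 and 296 events in the mock. Its share of all events was 0.0421% and 0.0567% in FA-CLIP and 0.0433% and 0.0453% in the mock, and the groups overlapped. trnN, trnW, trnC and trnE were each identical to their copy there. The chromosome 2 copy AT2G07764 of the asparagine transfer RNA had 61 and 120 events in FA-CLIP and 5 and 52 in the mock, more than TRNN itself in each library. Mitochondrial and chromosome 2 events together came to 87.7 and 190 CPM in FA-CLIP and 14.3 and 99.5 CPM in the mock for TRNN, and these groups overlapped. For TRNW they came to 51.0 and 63.8 CPM in FA-CLIP and 114 and 116 CPM in the mock, without overlap. In a fit with the 7 transfer RNA copies added to their mitochondrial loci, the log2 fold change of TRNN was 1.26 (edgeR adjusted p = 0.063), and no call among the 17 tested loci changed. The chloroplast asparagine loci, which differ from the mitochondrial one by the single base in capitals above, held 344 and 265 events in FA-CLIP and 327 and 491 in the mock. The rule by which reads matching several copies were assigned is not stated. For rrn18 and rrn26, the best-scoring matches on the whole of chromosome 2 in TAIR10.1 were 73 nt at 97.3% identity and 62 nt at 82.3% identity. The search kept only the best-scoring match of each gene, and no long, nearly identical copy was found in that assembly.

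Protein-coding genes had few events per locus and few loci with a site. Sites were listed for 22 named protein-coding loci, in both FA-CLIP libraries for 9, in both mock libraries for 10 and in all 4 for 8. Of the 5 that were tested, 1 was lower in FA-CLIP and none was higher, and the median log2 fold change was -1.06. The cytochrome c oxidase genes, for complex IV of the respiratory chain, had sites in all 4 libraries. COX3 (ATMG00730) had 4 and 8 events in FA-CLIP and 23 and 34 in the mock, or 4.44 and 9.63 CPM in FA-CLIP and 47.0 and 52.0 CPM in the mock, without overlap. COX3 fell by 2.80 on the log2 scale (SE 0.69, edgeR adjusted p = 0.0002). Its log2 fold change was -3.56 with TMM factors and -5.50 with DESeq2. With sites above the median number of events it was -7.85, but no FA-CLIP site of COX3 remained there, so that value depends on the prior count. The region ChrM:218159-218191, which the authors' label puts in the 5' UTR, had no listed site in FA-CLIP and 12 and 7 events in the mock. COX1 (ATMG01360) had 20 and 19 events in FA-CLIP and 17 and 11 in the mock, with a log2 fold change of -0.16 (edgeR adjusted p = 0.80). COX2 (ATMG00160) had 4 and 8 events in each of the groups and was not tested. The call for COX3 was lost without FA-CLIP replicate 1 (log2 fold change -2.34, edgeR adjusted p = 0.14) and without FA-CLIP replicate 2 (-3.43, edgeR adjusted p = 0.14). The copy of COX3 in the insertion, AT2G07687, had 6 and 2 events in FA-CLIP and 5 and 6 in the mock.

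Genes of the ATP synthase, here those whose symbol begins with ATP, had sites at 5 loci, 3 of them in both FA-CLIP libraries. ORF25, counted apart from them, had 2 events in mock replicate 2 and no listed site elsewhere. ATP6-1 (ATMG00410), one of the copies of the membrane subunit a, had 21 and 13 events in FA-CLIP and 23 and 31 in the mock. These were 23.3 and 15.7 CPM in FA-CLIP and 47.0 and 47.5 CPM in the mock, and the log2 fold change of -1.27 had an edgeR adjusted p of 0.052. ATP6-2 (ATMG01170), the other copy, had 13 and 27 events in FA-CLIP and 8 and 19 in the mock, with a log2 fold change of 0.02. ATP9 (ATMG01080), the ring subunit c, had 5 and 12 events in FA-CLIP and 2 and 4 in the mock. Of the 4 joined ChrM regions with a site in both FA-CLIP libraries and in neither mock library, 3 lay in these genes: ATP9 at ChrM:279066-279124 with 3 and 6 events, and ATP6-2 at ChrM:297206-297238 with 2 and 4 events and at ChrM:296962-296993 with 2 and 2 events. The remaining one was in TRNQ at ChrM:254503-254541, with 2 and 4 events. Such counts lie at or near the minimum of the lists. The atp9 gene had an identical match on chromosome 2. In the insertion, AT2G07671, a subunit C family locus, had 6 and 12 events in FA-CLIP and 2 and 14 in the mock. AT2G07777, also annotated as ATP synthase, had 5 and 0 in FA-CLIP and 6 and 0 in the mock. AT2G07741, an ATPase subunit A locus, had 20 and 17 in FA-CLIP and 17 and 4 in the mock. A region without a mock site on ChrM is therefore not shown to lack mock reads.

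The NADH dehydrogenase genes (nad), for complex I, had sites at 9 loci, with 33.3 and 44.6 CPM in FA-CLIP and 34.7 and 53.6 CPM in the mock, and the groups overlapped. NAD4 (ATMG00580) had 6 and 9 events in FA-CLIP and 9 and 12 in the mock, with a log2 fold change of -1.06 (edgeR adjusted p = 0.054). The locus ATMG00513, which holds one part of the NAD5 gene, had 13 and 4 events in FA-CLIP and 6 and 8 in the mock. ATMG00060, another part of NAD5, had 9 and 11 in FA-CLIP and 0 and 3 in the mock. It did not pass the filter on low counts, and without that filter its log2 fold change was 2.11 (edgeR adjusted p = 0.037). Single loci of the other lists held sites in fewer libraries. COB, the cytochrome b of complex III, had 3 events in FA-CLIP replicate 1 and no listed site elsewhere. CCB452, a cytochrome c biogenesis locus, had 4 events in FA-CLIP replicate 1 and no listed site elsewhere. RPS4, a protein of the small ribosomal subunit, had 2 events in mock replicate 1 and no listed site elsewhere. The lists go by symbol, so ATMG00090, which has none, is counted in no list. It had 11 and 2 events in FA-CLIP and 2 and 4 in the mock.

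Of the 9 other ORFs with a site, 3 were tested. ORF291 (ATMG01280) had 2 and 2 events in FA-CLIP and 9 and 18 in the mock, or 2.22 and 2.41 CPM in FA-CLIP and 18.4 and 27.6 CPM in the mock. ORF291 fell by 3.24 on the log2 scale (SE 0.57, edgeR adjusted p = 9.8e-07), with -3.98 under TMM factors and -5.98 under DESeq2. This call was lost without FA-CLIP replicate 1 (edgeR adjusted p = 0.18) and without FA-CLIP replicate 2 (edgeR adjusted p = 0.17), and its FA-CLIP counts were at the minimum of the lists. Without mock replicate 2 it did not pass the filter. ORF107G (ATMG01060) had 34 and 45 events in FA-CLIP and 26 and 27 in the mock, and its CPM values overlapped. ORF110A (ATMG00280) had 15 and 31 events in FA-CLIP and 7 and 22 in the mock, and these also overlapped in CPM.

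Most sites on ChrM lay where the other group also had one. With an overlap of at least 1 nt on the same strand, 80.0% and 78.9% of the ChrM sites of the FA-CLIP libraries overlapped a site of either mock library, against 7.67% and 6.73% of their nuclear sites. The mock lists held fewer sites than FA-CLIP over the whole genome but as many on ChrM, and this difference in number was not tested as a source of the gap. The reverse shares were 82.7% and 77.6% of the ChrM sites of the mock libraries. Between replicates, 61.6% of FA-CLIP replicate 1 sites overlapped replicate 2 and 57.8% the other way, and the mock values were 75.2% and 70.6%. By class, 96.8% and 98.4% of FA-CLIP ribosomal RNA sites overlapped a mock site, against 51.4% and 50% of those in named protein-coding loci. Mock sites covered 2586 and 2877 nt of the ribosomal RNA loci, whose genes are 1935, 3169 and 118 nt long. In named protein-coding loci they covered 649 and 850 nt. Whether this coverage accounts for the class difference was not tested. Joined sites formed 173 regions, of which 44 had a site in all 4 libraries, 4 in both FA-CLIP libraries and no mock library, 10 in both mock libraries and no FA-CLIP library, and 68 in a single library. No mitochondrial locus was listed in both FA-CLIP libraries and absent from both mock lists. Among tested loci, 3834 of 5136 over all genomes and 0 of the 17 mitochondrial ones had no event in either mock library. TRNP and ORF109B were listed in both mock libraries and in neither FA-CLIP library, with 2 and 2 events for TRNP and 3 and 4 for ORF109B.

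The input tables hold FPKM, a level per gene length and per library size, for 143 of the mitochondrial loci. ECT2 itself stood at 72.1 and 74.9 FPKM in the 2 input libraries. Mitochondrial loci took 0.101% and 0.133% of the summed FPKM, and 0.152% and 0.313% when AT2G01021 was left out, since that nuclear locus alone took 33.4% and 57.5%. They were above 0 at 115 and 120 loci, with medians of 0.462 and 0.675 FPKM, against 1.31 and 1.32 FPKM over nuclear loci. ATMG00030, which had no site, was the highest, at 274 and 441 FPKM. TRNS.2 followed at 153 and 160 FPKM, then ATMG00780 at 134 and 70.9, TRNW, listed at 0 and 199, ATMG00790 at 58.1 and 108 and TRNY.1 at 64.0 and 59.4. TRNP was listed at 0 and 98.4 FPKM, TRNE at 0 and 85.6 and TRNK.1 at 0 and 70.5. TRNY.2 was at 20.7 and 57.7 FPKM. In all, 15 and 9 of the 18 transfer RNA loci with a site were listed at 0 in input, among them TRNN and TRNC in both libraries. Their events in FA-CLIP and mock therefore have no input level of the same locus beside them. The identical chromosome 2 copy of TRNC, AT2G07763, was listed at 84.4 and 0 FPKM, and that of TRNN, AT2G07764, at 0 in both. Since the assignment of reads matching several copies is not stated, a listed 0 does not show that the RNA was absent.

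**Figure D4:**
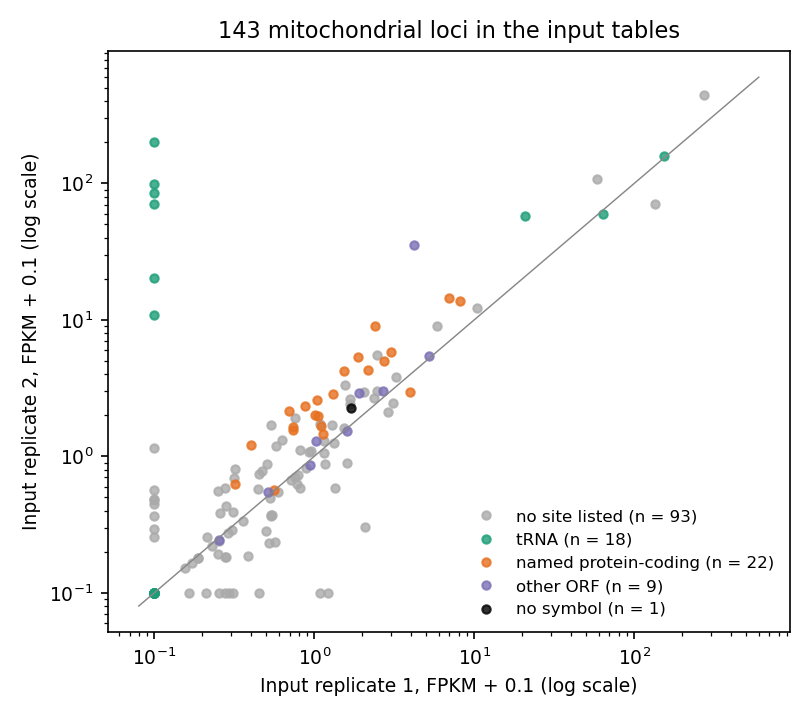
FPKM plus 0.1 of the 143 mitochondrial loci in input replicate 1 (horizontal) and replicate 2 (vertical), on log scales, coloured by class, with the line of equal values. Several transfer RNA loci lie on the left edge, listed at 0 in replicate 1 only, and 21 of the 22 named protein-coding loci were higher in replicate 2.

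Named protein-coding loci had medians of 1.02 and 2.36 FPKM in the input libraries, and 21 of 22 were higher in replicate 2, with a median ratio of replicate 2 to replicate 1 of 2.18, against 0.986 over nuclear loci. Spearman correlation between the 2 input libraries was 0.68 over the 143 loci. Loci with a site had a median of 1.61 FPKM and loci without one 0.409 FPKM, taken over 50 and 93 loci, and 25 of the 93 loci without a site were at 1 FPKM or more. Over the 143 loci, input FPKM and events had a Spearman correlation of 0.25 in FA-CLIP and 0.30 in the mock. These correlations describe loci that share libraries, and FPKM and events are different units made with different kits.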

How the data were processed

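The 6 libraries were grouped by their labels as FA-CLIP, mock and input, 2 each. Precipitated RNA went through a small RNA kit and input RNA through an RNA library kit, per the labels' protocols. The submitters' processing notes name cutadapt, Bowtie and TAIR10, without versions. Which base conversion was counted, by which caller and on which annotation, is not stated. In the deposited site lists the values used are whole-number counts of conversion events, per the file headers, with no scaling between libraries. FPKM of the deposited input tables were computed by the authors. That unit was inferred from the column names and the values, and the depth is unknown.

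Sites repeated over transcripts of a locus entered once. Events were summed per locus, with 0 where a list has no site, and tested with edgeR 4.0.16 (glmQLFit, glmQLFTest, filterByExpr, total events as library size, no TMM factors, no replicate block) in R 4.3.3. Deviations of same-numbered libraries from their group means correlated at 0.02 over 5136 loci. Since 3834 of these had no event in either mock library, that value cannot decide whether the replicate numbers pair the libraries. On simulated counts with the library sizes of this comparison, 185 of 195 loci with a planted log2 change of 3 were recovered among 4247 loci, with 11 false calls. The simulation used a single fixed dispersion and equal group means outside the planted loci. In the data most loci had no mock event, so these figures do not give the error rates of the real comparison. Shares were compared with exact permutation tests over libraries. Copies of mitochondrial genes were found with blastn 2.17.0 in RefSeq TAIR10.1, whose mitochondrial chromosome differs from ChrM of the lists: 0 of 435 ChrM sites fell inside the RefSeq gene of the same name. No site sequence was therefore read by coordinates. Other tools were Python 3.11.15, numpy 2.4.6, scipy 1.17.1, pandas 2.3.3 and matplotlib 3.10.9.

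Loci were named by rule: all ribosomal RNA loci, the 12 with the most events over the 4 precipitated libraries, the 10 highest in input, all called loci, and respiratory, ribosomal and maturation genes with a site in both libraries of a group. Single-library genes, regions and copies named besides these were chosen after their values were seen. The members and lists were chosen with earlier results of these data known. The alternatives were leaving out each library, TMM factors, DESeq2 1.42.0, no filter, a replicate block, sites above the median number of events, a 50% overlap, and other totals, pseudocounts and FPKM minimums. Loci of the chromosome 2 insertion were left out of 1 fit. In another, 7 of its transfer RNA loci, paired through RefSeq synonyms, were added to the mitochondrial locus of the same amino acid and the rest left out.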

Additional observations from a re-analysis of the deposited data

How the results depend on the processing

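The lower ChrM share in FA-CLIP kept its direction when 1 library was left out and with sites above the median number of events. It also did so without ribosomal, transfer and other small RNA loci, and as a share of sites. These log2 ratios ran from -2.62 to -3.64 around the reported -2.82. The small RNA and site settings use totals that differ widely between the groups. All sites numbered 41707 and 41471 in FA-CLIP and 3440 and 3848 in the mock, while ChrM sites numbered 125 and 128 against 133 and 143. Those settings therefore cannot tell a lower mitochondrial count from a larger total. Ratios to the same class of other genomes were added after seeing the data. For ribosomal RNA they kept the direction, at -1.34 per chloroplast and -2.02 per nuclear events. For transfer RNA they did not, at 0.07 per chloroplast and 0.97 per nuclear events, with overlapping groups. RRN18 and RRN26 stayed lower with an adjusted p under 0.05 under every fit. The count of 4 mitochondrial loci lower in FA-CLIP became 10 with TMM factors, 16 with DESeq2 and 2 with a replicate block, and 2 to 4 when 1 library was left out. The count of 0 higher became 1 without the filter on low counts (ATMG00060, log2 fold change 2.11), 1 with sites above the median number of events (TRNS.1, ATMG00230, 1.61), and 0 to 1 when 1 library was left out (TRNN, without mock replicate 2). Over all loci, 154 lower became 283 with TMM factors and 527 with DESeq2 (42 to 136 with 1 library left out), and 4545 higher became 7958 without the filter (677 to 5895 with 1 library left out). Adding the chromosome 2 transfer RNA copies changed no call among the 17 loci. Leaving the insertion out changed none either, but that fit kept the events of the mitochondrial loci as they were. It therefore cannot show whether reads shared with the copies matter. Copies of protein-coding genes were not added in any fit. The median log2 fold change of all loci was 7.23 with TMM factors and 4.04 with DESeq2. With the replicate block, COX3 (log2 fold change -2.86, edgeR adjusted p = 0.061) and ORF291 (-3.19, edgeR adjusted p = 0.14) lost their calls. Whether the replicate numbers pair the libraries is not known. Directions reversed only at loci that had not passed the threshold as reported. TRNS.1 became -1.89 (adjusted p = 0.045) and TRNN -1.35 with DESeq2. ORF110A became -0.69 with TMM factors and -2.59 with DESeq2, and ran from -0.53 to 0.90 with 1 library left out. TRNC became -0.44 with TMM factors and -2.34 with DESeq2, and ran from -0.26 to 0.75 with 1 library left out. ATP6-2 became -0.79 with TMM factors, -2.69 with DESeq2 and -0.76 with sites above the median, and ran from -0.65 to 0.51 with 1 library left out. ORF107G became 0.15 with sites above the median, and ran from -0.32 to 0.20 with 1 library left out. COX1 ran from -0.62 to 0.42 with 1 library left out. With a 50% overlap the shared shares of ChrM sites were 32.0% and 31.3% between FA-CLIP replicates, 42.1% and 39.2% between mock replicates, 64.0% and 53.9% of FA-CLIP sites in the mock, and 57.1% and 51.7% of mock sites in FA-CLIP. With sites above the median they were 72.7% for FA-CLIP replicate 2 in replicate 1, 81.5% for mock replicate 2 in replicate 1, and 87.5% and 89.1% of FA-CLIP sites in the mock. The mean input share of 0.117% became 0.233% without AT2G01021, and the mock correlation with input became 0.14 at loci of 1 FPKM or more. The cause of these shifts was not tested. Most mitochondrial loci outside ribosomal RNA had under 50 events per library, which limits what their comparisons can show.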
